A study of Mus musculus with 12 samples.

Results

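Interleukin receptors are the cell surface proteins through which blood cells read interleukins, and 41 of the 46078 counted genes met the definition used here. The members were the protein-coding genes whose symbol in the GRCm38 annotation begins with Il, a number and r, without Il1rn (a secreted antagonist that is no receptor) and Il7r. They carried 39 symbols, because Il11ra2 is annotated at 3 places. The rule reads symbols only, so receptor chains with other names, such as Il6st (gp130) and Csf2rb (the common beta chain), were not members, and Il22ra2, a soluble binding protein, was. The cells were mouse hematopoietic stem and progenitor cells of the C57BL/6 strain, infected with a lentivirus that carried GFP and an shRNA against Rad21 (shRad21), a subunit of the cohesin complex, or against luciferase (shLuci, the control). In the culture experiment, LSK cells (lineage-, Sca-1+, c-Kit+) were kept for 3 d after isolation and infection in serum-free medium with thrombopoietin and stem cell factor, and GFP+CD48-Sca-1+ cells were then sorted. In the in vivo experiment, infected LSK cells were transplanted into lethally irradiated mice, and GFP+ LSK cells were sorted 3 mo later by the labels. The study's text gives a later time for this step. Each of the 4 groups, shLuci and shRad21 in culture and in vivo, had 3 libraries. The labels do not say whether replicates were separate cultures or mice, so p-values measure only the spread between these libraries. The experiments also differed in library kit and sequencing lane, and the labels give no age for the mice. Rad21 was reduced by the shRNA, not deleted.

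Interleukin receptors fall into families by structure. Receptors of the IL-1 family signal through a shared intracellular domain, Myd88, and IRAK kinases toward NF-κB, and the IL-17 receptors use a related domain. Most others are type I or type II cytokine receptors without enzymatic activity of their own, which pair a ligand-binding chain with a shared chain (the common gamma chain, the common beta chain, gp130, or IL-10Rb) and signal through JAK kinases and STAT factors. In hematopoietic stem and progenitor cells, IL-1, IL-3, and IL-6 are known for driving proliferation and myeloid differentiation.

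A total of 32 member genes had 10 or more counts in at least 3 of the 12 libraries. The 9 others were Il1rapl1, Il17rd, Il5ra, Il13ra2, Il22ra1, Il23r, and the 3 copies of Il11ra2. Il11ra2 had 0 counts in every library, which allows 3 counts per library, or between 0.107 and 0.211 counts per 1000000 (counting error only). It is nearly identical to Il11ra1, so the assignment of reads between them is uncertain. Il23r had 15 counts in 1 shLuci library in vivo and at most 2 in each other library. By family, 8 of 9 genes of the IL-1 family, 4 of 5 IL-17 receptors, 8 of 9 genes of the common gamma chain group (with the IL-4 and IL-13 receptors), 1 of 2 of the common beta group (Il3ra), 6 of 10 of the gp130 and IL-12 group, and 5 of 6 of the class II group were detected by this rule.

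Levels are given as counts per 1000000 (CPM), scaled with the TMM method over all 12 libraries, and as CPM per kilobase of exonic length where genes are compared with each other. Il2rg, the common gamma chain of the IL-2, IL-4, IL-9, IL-15, and IL-21 receptors, had the highest level per length of all members in each of the 4 groups, with means of 78.7 CPM per kb in shLuci and 67.5 in shRad21 in culture, and 72.8 and 68.2 in vivo. In cultured control cells its libraries (72.8 to 89.6 CPM per kb) did not overlap those of Il10ra (the IL-10-binding chain, 39.9 to 60.5), the second in that order. Il4ra (the alpha chain for IL-4 and IL-13, 31.1), Il17ra (the shared IL-17 receptor chain, 23.96), Il1r1 (the signaling receptor for IL-1, 21.4), Il18rap (the accessory chain for IL-18, 20.1), Il27ra (the IL-27 chain, 18.1), and Il21r (the IL-21 chain, 17.4) followed, and the libraries of Il18rap overlapped those of Il1r1 and Il27ra, which in turn overlapped Il21r. In control cells in vivo, the order after Il2rg was Il17ra (35.2 CPM per kb), Il21r (29.9), Il10rb (26.6), Il4ra (22.4), and Il27ra (19.6). The libraries of Il17ra and Il21r overlapped there, as did those of Il21r and Il10rb and of Il10rb and Il4ra. Of the exons of Il2rg, 30.5% lie in an overlap with another annotated gene, as do 40.0% of those of Il12rb2, 14.9% of Il10rb, and 9.5% of Il4ra, and the kits do not mark strand, so reads of such stretches cannot be told apart from those of the overlapping gene.

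**Figure D1:**
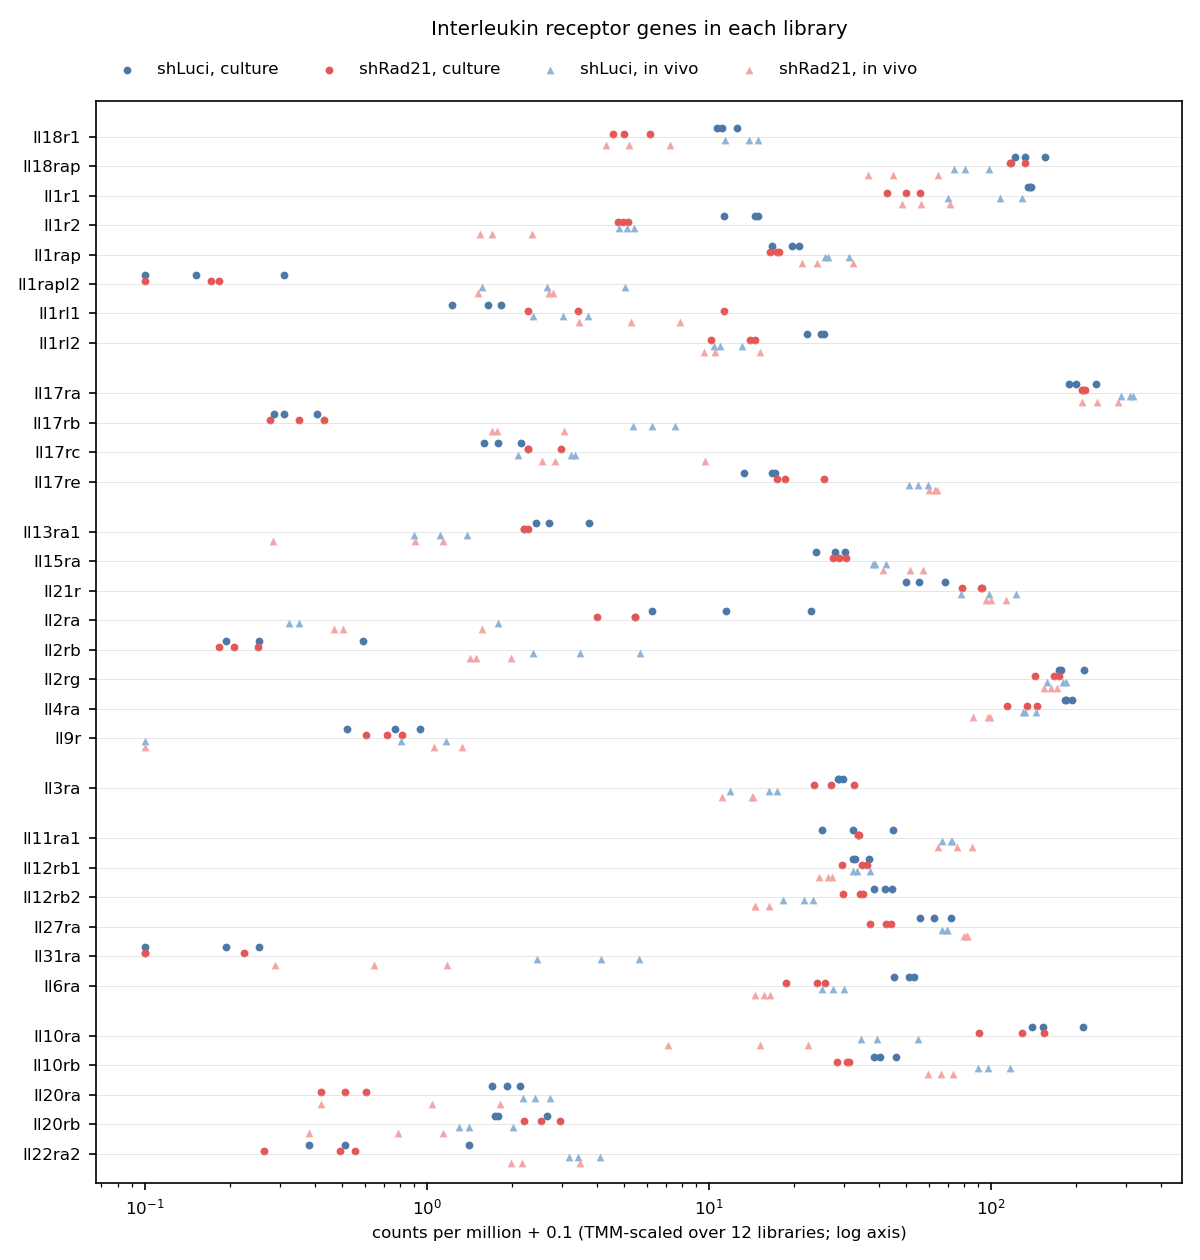
Level of each of the 32 detected interleukin receptor genes in each of the 12 libraries, in CPM plus 0.1 on a log axis. Each point is 1 library (circles, culture; triangles, in vivo; blue, shLuci; red, shRad21), and genes are grouped by family. Il17ra, Il2rg, and Il4ra lie at the right in all groups, and Il1rapl2, Il31ra, Il17rb, and Il2rb lie near the left edge in culture.

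The total gene count of a library lay between 15235129 and 29846689. Rad21 had 128, 137, and 154 CPM in the shRad21 libraries against 384, 405, and 419 in the shLuci libraries in culture (CPM of a group are listed from low to high, counts in the order of the replicates, n = 3) and 43.4, 43.6, and 47.7 against 118, 124, and 125 in vivo, so the groups did not overlap in either experiment. The 8 markers of LSK and stem cells were expressed in all libraries. They summed to 2332.8 to 2524.9 CPM in shRad21 against 2571.1 to 2774.9 in shLuci in culture. In vivo their sums were 2642.3 to 2849.7 against 3544.9 to 3764.6 CPM. Kit and Flt3 fell and Slamf1 and Mecom rose in both experiments. Hlf also rose in culture, and in vivo Cd34 fell and Ly6a rose. Among markers of other cell types, levels within a list differed widely. Cd3e, a T-cell gene, had at most 3 counts in any library, but Nkg7 of the same list had 4021 to 9049 in vivo. Cd2, Ms4a1 (B cells), and Ly6g (neutrophils) had 0 counts in each culture library, where Cd79b, a B-cell marker, had 372 to 569. Neutrophil markers summed to 85.7 to 263 CPM in shRad21 and 141 to 258 in shLuci in vivo. In culture these sums were 1.14 to 3.17 and 1.33 to 3.37. Markers of monocytes, macrophages, and dendritic cells were lower in shRad21, with a summed level of 8.33 to 12.5 against 40.4 to 56.2 CPM in culture (5 of 5 tested genes fell) and 20.05 to 25.1 against 48.4 to 69.6 in vivo (4 of 8 fell). Markers of mast cells and basophils summed to a higher level in shRad21, with 346 to 543 against 242 to 303 CPM in culture (2 of 7 rose, Cpa3 and Gata2) and 548 to 629 against 366 to 413 in vivo (4 of 9 rose, and 4 had negative values, among them Mcpt8 and Ms4a2, that did not pass). Most of these sums was Gata2, which stem and progenitor cells also express, and without it they were 26.5 to 83.8 against 15.3 to 20.04 CPM in culture and 154 to 219.7 against 111.6 to 133 in vivo. B-cell markers summed to 17.5 to 21.4 against 26.6 to 27.4 CPM in culture (1 of 2 fell) and 54.4 to 73.9 against 87.6 to 119 in vivo (4 of 6 fell), and eosinophil markers to 1.11 to 2.92 against 4.35 to 12.4 in culture and 10.2 to 16.1 against 26.6 to 43.7 in vivo (Siglecf fell in both). Markers of T and NK cells summed to 13.3 to 20.5 against 21.3 to 39.00 CPM in culture (1 of 2 fell, Nkg7). Of the 4 megakaryocyte genes, Gp9 and Itga2b rose in both experiments, and Pf4 and Ppbp fell in culture and did not pass in vivo. Of the other lists, neutrophil genes passed in neither, and 1 of 5 erythroid genes (Klf1) fell in vivo. In bulk RNA, fewer cells of a type and less RNA per cell cannot be told apart, and the part of these shifts in the receptor results was not tested.

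In culture, 27 members passed the filter on low counts and were tested, and 10 of them fell with Rad21 knockdown (8.06% of all tested genes fell), while 2 rose (6.18% of all tested genes rose). The median log2 fold change was -0.22 over the tested members and 0.00 over all 15543 tested genes. Genes that fell were Il1r1, Il1r2, Il1rl2, and Il18r1 of the IL-1 family, Il2ra and Il4ra of the common gamma chain group, Il6ra and Il27ra of the gp130 and IL-12 group, and Il10rb and Il20ra of the class II group. Il1rl1 and Il21r rose. Calls rest on the quasi-likelihood test of edgeR, with p-values adjusted by the Benjamini-Hochberg method over all tested genes and a threshold of 0.05, which holds for every adjusted p given here.

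Il1r1 and Il1r2, the IL-1 receptor genes, had the smallest adjusted p-values among the members. Il1r1 had 42.5, 49.6, and 55.8 CPM in shRad21 against 134, 137, and 138 in shLuci, so the groups lay far apart and the level was 36.3% of the control (log2 fold change -1.46 ± 0.10 (SE), adjusted p = 1.53e-05). Il1r2 encodes a decoy that binds IL-1 without signaling. It went from 11.2, 14.4, and 14.7 CPM to 4.66, 4.85, and 5.07 (log2 fold change -1.46 ± 0.15 (SE), adjusted p = 0.000191). Il18r1, the IL-18-binding chain, went from 10.6, 11.02, and 12.4 CPM to 4.45, 4.88, and 6.06 (log2 fold change -1.13 ± 0.16 (SE), adjusted p = 0.000979). Il1rl2, the receptor for IL-36, went from 22.1, 24.9, and 25.5 to 10.1, 13.9, and 14.4 CPM (log2 fold change -0.91 ± 0.14 (SE), adjusted p = 0.00183). None of these 4 genes had overlapping groups. The accessory chains did not pass the threshold. Il1rap, the accessory chain shared by the receptors for IL-1, IL-33, and IL-36, had a value of -0.14 on the log2 scale (adjusted p = 0.501), and Il18rap had -0.16 (adjusted p = 0.360).

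Il1rl1, which encodes ST2, the receptor for IL-33 that mast cells carry in high amounts, was the IL-1 family gene that rose. It had 1.12, 1.54, and 1.73 CPM in shLuci and 2.18, 3.33, and 11.2 in shRad21 (log2 fold change 1.93 ± 0.54 (SE), adjusted p = 0.0362). All 3 shRad21 libraries lay above the controls, but 1 of them, replicate 3 with 314 counts against 53 and 66 in the others, was far above the other 2. Without that library the log2 fold change was 0.90 (adjusted p = 0.0957), and the call was also lost without any 1 of the 3 control libraries and with DESeq2 (adjusted p = 0.0559). The same library had the highest summed level of the 9 mast cell and basophil markers in culture, 543 CPM against 346 and 458 in the other shRad21 libraries, of which Gata2 made up 459, 319, and 409.8 CPM. Without Gata2 the sums were 83.8, 26.5, and 48.6 CPM, with 1895 counts of Cpa3 (a mast cell protease) against 509 and 751. The part of such cells in the value of Il1rl1 was not tested.

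Il6ra, the ligand-binding chain for IL-6, went from 45.03, 51.2, and 52.9 CPM in shLuci to 18.5, 23.9, and 25.6 in shRad21, or 45.9% of the control (log2 fold change -1.12 ± 0.13 (SE), adjusted p = 0.000278). Il27ra, the IL-27 chain that pairs with gp130, had 55.9, 62.6, and 71.7 CPM in shLuci and 36.98, 42.1, and 43.95 in shRad21 (log2 fold change -0.62 ± 0.11 (SE), adjusted p = 0.00353). For both genes every knockdown library was below every control. Il12rb1, the chain shared by the IL-12 and IL-23 receptors, differed by -0.02 on the log2 scale (adjusted p = 0.951). Il12rb2, the second chain for IL-12, had 29.8, 34.1, and 34.9 CPM against 38.3, 41.8, and 44.4 and just missed the threshold (log2 fold change -0.33 ± 0.10 (SE), adjusted p = 0.0528). It passed with the replicate number as a block (adjusted p = 0.0164) and with DESeq2 (adjusted p = 0.0430).

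In the common gamma chain group, Il4ra and Il21r moved in opposite directions. Il4ra went from 182, 184, and 194 CPM to 114, 134, and 145 (log2 fold change -0.50 ± 0.09 (SE), adjusted p = 0.00463), and Il21r rose from 49.9, 55.4, and 68.4 to 78.8, 91.8, and 92.7 (log2 fold change 0.61 ± 0.12 (SE), adjusted p = 0.00577), without overlap for either gene. Il2ra, the alpha chain for IL-2 known as CD25, had 6.17, 11.4, and 22.9 CPM in shLuci and 3.91, 5.35, and 5.36 in shRad21 (log2 fold change -1.44 ± 0.38 (SE), adjusted p = 0.0263). Its control libraries spread over a wide range, and the call was lost with DESeq2 (adjusted p = 0.0534) and when any library but shLuci replicate 3 was left out (adjusted p up to 0.0877). Il2rg, with 143, 167, and 173 CPM in shRad21 against 174, 176, and 214, did not pass the threshold (log2 fold change -0.22 ± 0.10 (SE), adjusted p = 0.214), nor did Il15ra, Il13ra1, and Il9r. The common beta group was represented by Il3ra, the alpha chain for IL-3, with 23.5, 26.9, and 32.4 CPM against 28.4, 28.7, and 29.8 (log2 fold change -0.06 ± 0.12 (SE), adjusted p = 0.817).

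In the class II group, Il10rb, the chain shared by the receptors for IL-10 and IL-22, went from 38.3, 40.1, and 45.7 CPM to 28.2, 30.6, and 31.1 (log2 fold change -0.45 ± 0.10 (SE), adjusted p = 0.0103). This call was lost without shLuci replicate 2 or shRad21 replicate 2 (adjusted p up to 0.0683). Il20ra, a chain of the receptors for IL-19, IL-20, and IL-24, had the largest fall among the called members, but from a low level. It had 29, 31, and 39 counts in the shLuci libraries and 10, 10, and 9 in the shRad21 libraries, or 1.59, 1.82, and 2.04 against 0.320, 0.412, and 0.505 CPM (log2 fold change -2.13 ± 0.29 (SE), adjusted p = 0.000803). Il10ra had 90.6, 128, and 154 CPM against 139, 153, and 212 and overlapping groups (log2 fold change -0.43 ± 0.19 (SE), adjusted p = 0.168). With the replicate number as a block it passed (adjusted p = 0.00116), and each shRad21 library was below the shLuci library of its number. Of the IL-17 receptors, Il17ra (log2 fold change 0.04, adjusted p = 0.851), Il17rc (0.47, 0.229), and Il17re (0.40, 0.144) did not pass. Il17re, a chain for IL-17C, passed with the block (adjusted p = 0.0341).

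**Figure D2:**
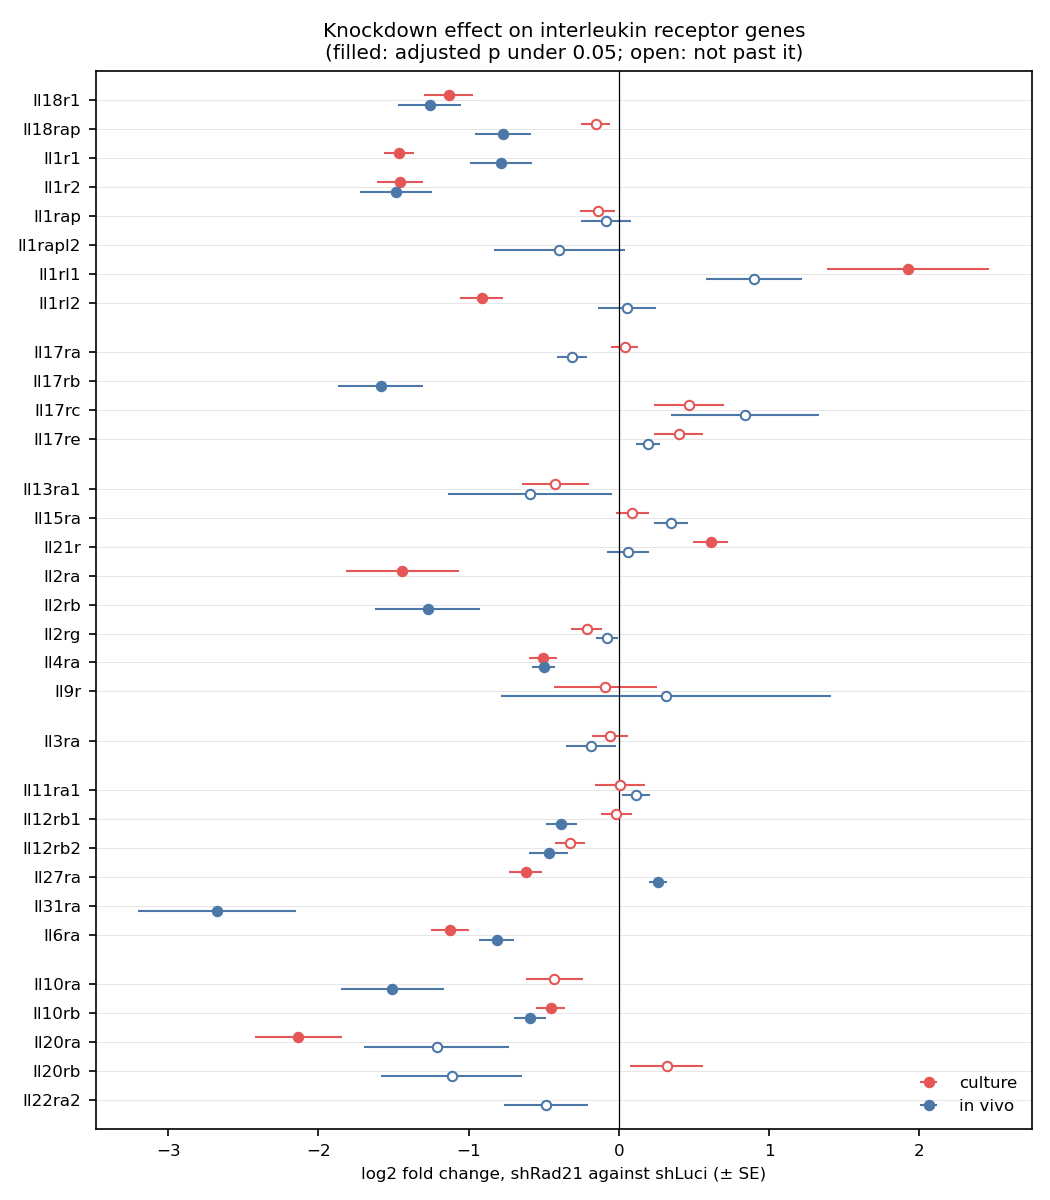
Log2 fold change of shRad21 against shLuci for each interleukin receptor gene in culture (red) and in vivo (blue), with its standard error; filled points passed an adjusted p of 0.05, and a gene with no point was not tested in that experiment. Of the tested members, 10 of 27 fell in culture (8.06% of all tested genes fell) and 13 of 31 in vivo (5.32% of all tested genes fell). Il27ra is the gene whose filled points lie on opposite sides of 0, and its call in vivo was lost without any library other than shRad21 replicate 2.

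In vivo, 31 members were tested, of which 13 fell (5.32% of all tested genes fell) and 1 rose (5.65% of all tested genes rose). The median log2 fold change was -0.47 over the tested members and 0.00 over all 15938 tested genes. The genes that fell were Il1r1, Il1r2, Il18r1, and Il18rap of the IL-1 family, Il17rb of the IL-17 receptors, Il2rb and Il4ra of the common gamma chain group, Il6ra, Il12rb1, Il12rb2, and Il31ra of the gp130 and IL-12 group, and Il10ra and Il10rb. Il27ra rose. When single libraries were left out, between 7 and 12 members were called lower. The count was 8 without shLuci replicate 1, shLuci replicate 2, or shRad21 replicate 1, and 7 without shRad21 replicate 3. Il10rb, Il17rb, Il18r1, Il1r2, Il31ra, Il4ra, and Il6ra fell in each of these fits.

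Il1r2 had 1.44, 1.60, and 2.26 CPM in shRad21 and 4.69, 4.999, and 5.29 in shLuci (log2 fold change -1.48 ± 0.24 (SE), adjusted p = 0.00370), and Il18r1 had 4.19, 5.08, and 7.14 against 11.3, 13.8, and 14.8 (log2 fold change -1.26 ± 0.21 (SE), adjusted p = 0.00432). The groups of both genes were apart. Il18rap went from 73.7, 80.7, and 98.2 to 36.5, 44.9, and 64.5 CPM (log2 fold change -0.77 ± 0.19 (SE), adjusted p = 0.0273), so both chains of the IL-18 receptor fell in vivo. Il1r1 had 70.3, 108, and 128 CPM in shLuci and 48.1, 56.1, and 71.3 in shRad21 (log2 fold change -0.79 ± 0.21 (SE), adjusted p = 0.0392). Here the lowest control library was below the highest knockdown library, and DESeq2 gave an adjusted p of 0.0642. The calls of Il18rap and Il1r1 were each lost without any 1 of 4 libraries, shLuci replicates 1 and 2 and shRad21 replicates 1 and 3 (adjusted p up to 0.119 and 0.142). Il1rl1 had 3.34, 5.18, and 7.77 CPM against 2.27, 2.94, and 3.63 (log2 fold change 0.90 ± 0.32 (SE), adjusted p = 0.112), and Il1rl2, Il1rap, and Il1rapl2 did not pass either.

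Il6ra went from 25.1, 27.5, and 29.9 to 14.5, 15.5, and 16.4 CPM, or 56.9% of the control (log2 fold change -0.81 ± 0.11 (SE), adjusted p = 0.00183). Both IL-12 receptor chains fell by smaller amounts. Il12rb1 went from 32.3, 33.3, and 37.03 to 24.4, 26.3, and 27.1 CPM (log2 fold change -0.38 ± 0.10 (SE), adjusted p = 0.0437), and Il12rb2 from 18.2, 21.5, and 23.2 to 14.4, 14.4, and 16.2 (log2 fold change -0.47 ± 0.13 (SE), adjusted p = 0.0452). Their groups did not overlap, but the call of Il12rb1 was lost when any 1 of the 6 libraries was left out and that of Il12rb2 for each but shLuci replicate 3. Both were also lost with upper-quartile scaling (adjusted p = 0.0542 and 0.0511). Il31ra, a chain of the IL-31 receptor, had 124, 80, and 53 counts in the shLuci libraries and 12, 24, and 4 in the shRad21 libraries (log2 fold change -2.68 ± 0.52 (SE), adjusted p = 0.0102). It was the member with the largest fall in vivo.

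Il10ra had 34.3, 39.3, and 54.8 CPM in shLuci and 7.05, 15.1, and 22.4 in shRad21, or 35.1% of the control (log2 fold change -1.51 ± 0.34 (SE), adjusted p = 0.0201). It was high in all controls and low in all knockdown libraries, though the call was lost without shLuci replicate 1 or shRad21 replicate 3 (adjusted p up to 0.0808). Its partner Il10rb went from 89.9, 97.3, and 116 to 59.6, 66.4, and 73.01 CPM (log2 fold change -0.59 ± 0.11 (SE), adjusted p = 0.00727). Il20ra had 7, 38, and 20 counts in the shRad21 libraries against 52, 52, and 47 (log2 fold change -1.21 ± 0.48 (SE), adjusted p = 0.154).

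In the common gamma chain group, Il4ra went from 129, 132, and 143 to 86.3, 97.5, and 98.5 CPM (log2 fold change -0.50 ± 0.08 (SE), adjusted p = 0.00270). Il2rb, the beta chain for IL-2 and IL-15 known from T and NK cells, had 51, 67, and 126 counts in shLuci and 41, 31, and 28 in shRad21 (log2 fold change -1.27 ± 0.35 (SE), adjusted p = 0.0451). The call of Il2rb was lost without any library other than shLuci replicate 1 (adjusted p up to 0.162). Markers of T and NK cells summed to 239.8 to 266 CPM in shRad21 against 309 to 411 in shLuci in vivo, most of it Nkg7, which fell (log2 fold change -0.70, adjusted p = 0.00285), while Klrb1c rose (3.46, 4.69e-07) and Cd3e had at most 3 counts. Their part in the value of Il2rb was not tested. Il21r, with 95.5, 99.9, and 112 CPM in shRad21 and 78.1, 98.4, and 122 in shLuci, did not pass (log2 fold change 0.06 ± 0.14 (SE), adjusted p = 0.850), and neither did Il2rg, Il15ra, Il13ra1, or Il9r. Of the IL-17 receptors, Il17rb, the chain for IL-25, went from 139, 148, and 119 counts to 35, 37, and 63 (log2 fold change -1.59 ± 0.28 (SE), adjusted p = 0.00624). Il17rc was high in 1 shRad21 library in vivo, with 213 counts in replicate 2 against 45 to 71 in the 5 other libraries (log2 fold change 0.84 ± 0.49 (SE), adjusted p = 0.349).

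Of the 26 members tested in both experiments, 6 fell in both, namely Il1r1, Il1r2, Il18r1, Il4ra, Il6ra, and Il10rb. These were 6 of the 10 that fell in culture and 6 of the 13 that fell in vivo, and of the 14524 genes tested in both experiments 2.08% fell in both. Another 11 passed in neither, among them Il2rg, Il17ra, Il3ra, Il11ra1, and Il1rap. None rose in both (1.87% of all genes did). Of the 6 that fell in both, Il1r1 in vivo and Il10rb in culture lost their calls in some fits that left out a library. DESeq2 did not call Il1r1 in vivo. By sign alone, 15 members had negative values in both experiments, 6 had positive values in both, and 5 differed in sign, against 4353, 4508, and 5663 of the 14524 genes. The fold changes of Il4ra were nearly equal (-0.50 in culture, -0.50 in vivo), as were those of Il1r2 (-1.46, -1.48), and neither gene passed the test of the difference (Il4ra, 0.01 ± 0.13 SE; Il1r2, 0.03 ± 0.25).

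The promoters of these genes are shown to make the sequence around their starts visible, next to that of Il21r, the neighbor of Il4ra that rose in culture. RefSeq windows of 300 bases (250 before to 50 after a start, build GRCm38.p6, strand of the gene) were given for 32 of the 39 member symbols and for 5 of the 6 genes that fell in both experiments, all but Il10rb. The windows are chr1:40266336-40266635 for Il1r1 (a start 41506 bases inside the gene), chr1:40085843-40086142 for Il1r2 (12014 bases inside), chr1:40465756-40466055 for Il18r1 (454 bases inside), chr7:125552021-125552320 for Il4ra, and chr7:125603179-125603478 for Il21r, all on the plus strand, and chr3:89913147-89913446 for Il6ra on the minus strand. Where a gene had several windows, the one with the most matches to the NF-κB and STAT motifs was taken. This choice favored the matches shown for Il1r1 (2 windows) and Il18r1 (3 windows), so they cannot be set against the shares of all windows. Capitals mark matches on either strand to the NF-κB consensus (10 bases), the STAT motif TTCNNNGAA, or the RUNX motif TGTGGT.
Il1r1: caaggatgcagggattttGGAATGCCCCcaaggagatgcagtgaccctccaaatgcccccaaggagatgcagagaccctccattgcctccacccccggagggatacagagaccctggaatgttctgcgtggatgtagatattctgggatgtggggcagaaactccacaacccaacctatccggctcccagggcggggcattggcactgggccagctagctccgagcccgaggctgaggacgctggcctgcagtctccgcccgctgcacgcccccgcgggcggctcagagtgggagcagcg
Il1r2: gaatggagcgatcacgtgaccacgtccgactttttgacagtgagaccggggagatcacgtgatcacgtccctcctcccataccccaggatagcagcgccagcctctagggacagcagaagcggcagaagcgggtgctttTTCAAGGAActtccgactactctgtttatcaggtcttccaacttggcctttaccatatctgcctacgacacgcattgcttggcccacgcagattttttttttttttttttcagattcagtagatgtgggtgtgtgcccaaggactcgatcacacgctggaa
Il18r1: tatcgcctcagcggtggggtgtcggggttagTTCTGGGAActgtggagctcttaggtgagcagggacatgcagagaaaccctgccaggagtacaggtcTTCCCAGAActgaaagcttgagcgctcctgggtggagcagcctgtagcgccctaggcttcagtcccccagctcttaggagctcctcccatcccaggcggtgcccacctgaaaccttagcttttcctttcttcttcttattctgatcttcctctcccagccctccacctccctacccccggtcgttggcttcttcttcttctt
Il4ra: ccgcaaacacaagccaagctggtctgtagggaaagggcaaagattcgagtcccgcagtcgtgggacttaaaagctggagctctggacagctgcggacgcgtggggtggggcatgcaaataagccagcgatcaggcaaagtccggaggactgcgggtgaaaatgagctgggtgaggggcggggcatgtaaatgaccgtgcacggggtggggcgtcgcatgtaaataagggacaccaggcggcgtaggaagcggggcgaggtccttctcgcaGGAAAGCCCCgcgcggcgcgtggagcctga
Il6ra: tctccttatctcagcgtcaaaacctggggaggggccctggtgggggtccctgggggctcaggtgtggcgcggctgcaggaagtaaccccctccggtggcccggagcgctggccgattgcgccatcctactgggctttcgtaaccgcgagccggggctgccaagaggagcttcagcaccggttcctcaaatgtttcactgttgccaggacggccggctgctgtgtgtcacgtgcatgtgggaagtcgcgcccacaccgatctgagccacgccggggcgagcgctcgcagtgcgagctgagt
Il21r: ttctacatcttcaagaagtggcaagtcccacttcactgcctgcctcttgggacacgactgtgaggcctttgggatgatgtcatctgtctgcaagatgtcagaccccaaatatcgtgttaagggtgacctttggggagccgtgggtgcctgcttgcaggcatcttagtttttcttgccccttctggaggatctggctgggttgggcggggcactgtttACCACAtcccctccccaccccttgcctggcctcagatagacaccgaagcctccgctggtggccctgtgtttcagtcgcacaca
The window of Il1r1 held 1 NF-κB match with its first base at position -232 from the start, and that of Il4ra held 1 at 20. Il1r2 held 1 STAT match at -111, and Il18r1 held 2, at -219 and -152. The window of Il6ra held none of the 3 motifs, and that of Il21r held 1 RUNX match at -33. Over all 32851 windows, 8.46% held the NF-κB motif, 8.30% the STAT motif, and 16.8% the RUNX motif, against 5, 4, and 8 of the 38 member windows. A match is a description of letters only, and these libraries hold no measurement of binding.

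**Figure D3:**
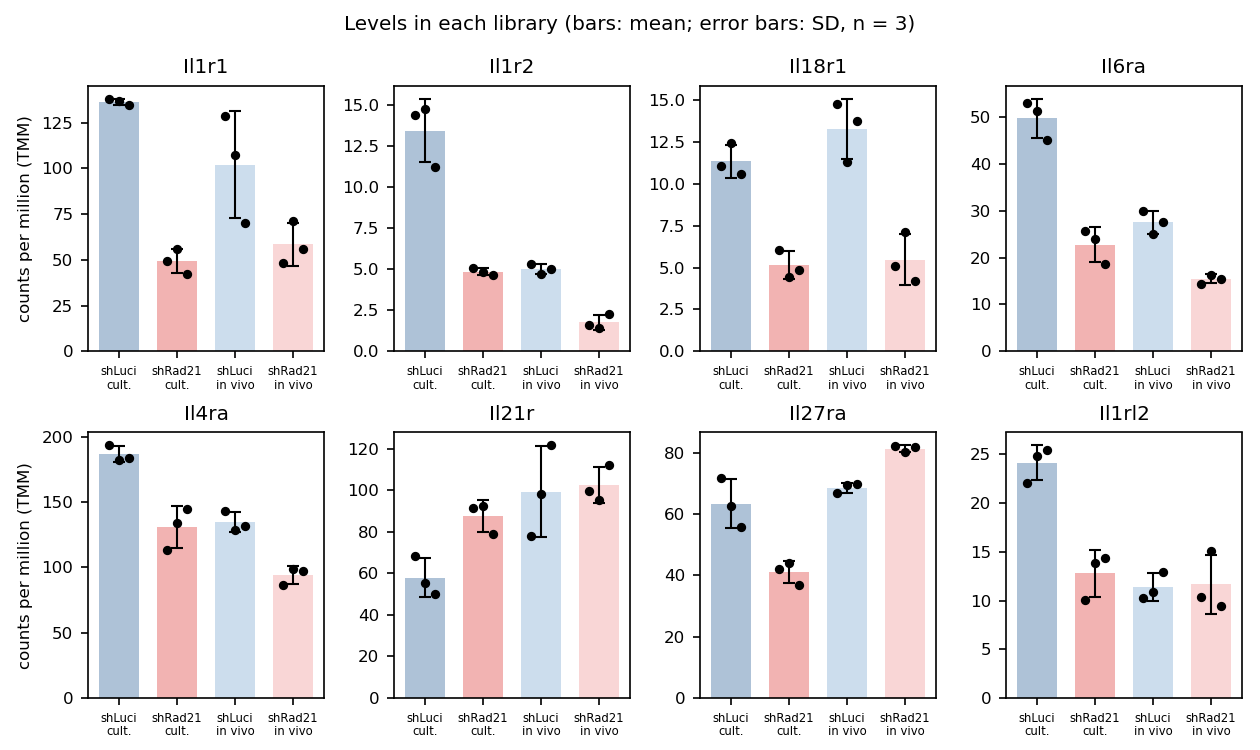
Level in CPM of Il1r1, Il1r2, Il18r1, Il6ra, Il4ra, Il21r, Il27ra, and Il1rl2 in the 4 groups (bars, mean; error bars, SD; points, single libraries; n = 3). Il27ra is lower in all shRad21 libraries in culture and higher in all shRad21 libraries in vivo, and the shRad21 bar of Il1rl2 is lower than its control in culture and level with it in vivo.

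The difference of the knockdown effect between the experiments was tested with an interaction term over all 12 libraries. Of 32 members, 2 passed, Il27ra and Il1rl2, both with a more negative effect in culture (3.03% of all 17050 tested genes had a more negative effect in culture and 1.64% a more positive one). Il27ra fell in culture and rose in vivo, from 66.7, 69.4, and 69.7 CPM in shLuci to 80.1, 81.98, and 82.05 in shRad21 (log2 fold change 0.26 ± 0.06 (SE), adjusted p = 0.0225). The difference of the log2 fold changes was -0.87 ± 0.13 (SE, adjusted p = 0.00154), and it passed without any 1 of the 12 libraries (adjusted p up to 0.00535). The rise in vivo itself was small, with replicates in a narrow range, and its call was lost without any library other than shRad21 replicate 2 (adjusted p up to 0.0943). The rise was also not called in 1 model of all 12 libraries, the model that gave the interaction term. Il1rl2 fell in culture and had 9.46, 10.4, and 15.1 CPM in shRad21 and 10.3, 10.8, and 12.96 in shLuci in vivo (log2 fold change 0.05 ± 0.19 (SE), adjusted p = 0.906). Its difference was -0.96 ± 0.26 (SE, adjusted p = 0.0468), and it was called in 2 of 12 fits that left out a library, those without shLuci replicate 3 in vivo or shRad21 replicate 3 in vivo. For the 7 genes that were called lower in vivo but not in culture, the difference did not pass. Nor did it for Il20ra and Il2ra, which were called lower in culture but not in vivo. Of these genes, Il17rb, Il2rb, and Il31ra were not tested in culture, and Il2ra was not tested in vivo. Their low counts there limit what the test of the difference could detect. Among the genes tested in both experiments, Il10ra had a difference of 1.09 ± 0.42 (adjusted p = 0.177) and Il18rap one of 0.63 ± 0.23 (adjusted p = 0.157).

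Several members are neighbors in the genome. In all, 6 genes of the IL-1 family, with starts within 441.3 kb, lie on chromosome 1 with no other protein-coding gene between them, in the order Il1r2, Il1r1, Il1rl2, Il1rl1, Il18r1, and Il18rap, all on the plus strand (Il1r2, chr1:40074079-40125231, plus strand; Il18rap, chr1:40515362-40551705, plus strand; GRCm38). The effects of the knockdown differed along this row. Il1r2, Il1r1, and Il18r1 fell in both experiments, Il1rl2 fell in culture, and Il18rap fell in vivo. The calls of Il1r1 and Il18rap in vivo were lost in some fits that left out a library. Il1rl1, which ends 0.137 kb before Il18r1 begins, had positive values in both experiments (log2 fold change 1.93 in culture and 0.90 in vivo) next to the negative ones of Il18r1 (-1.13 and -1.26). On chromosome 7, the starts of Il4ra (chr7:125552120-125579474, plus strand) and Il21r (chr7:125603429-125633570, plus strand) are 51.3 kb apart, and in culture Il4ra fell and Il21r rose. On chromosome 2, Il2ra fell in culture and its neighbor Il15ra, the alpha chain for IL-15, 62.5 kb away from start to start, had a log2 fold change of 0.09 ± 0.11. On chromosome 6, Il17re and Il17rc, with starts 12.9 kb apart, had positive values that did not pass in either experiment.

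**Figure D4:**
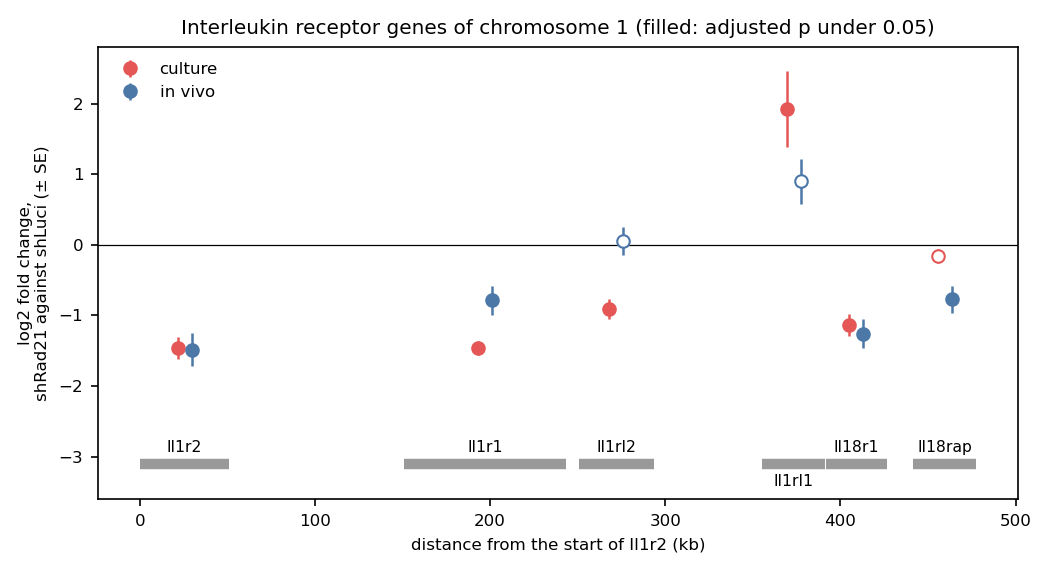
Log2 fold change (± SE) of shRad21 against shLuci for the 6 interleukin receptor genes of chromosome 1, drawn at the middle of each gene by its distance from the start of Il1r2 in kb (red, culture; blue, in vivo; filled, adjusted p under 0.05; gray bars, genes). Il1r2, Il1r1, and Il18r1 lie below 0 in both experiments, and Il1rl1, between Il1rl2 and Il18r1, lies above 0 in both.

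The comparison of control cells between the experiments asks which receptors differ between cultured and transplanted, reisolated cells. Kit, lane, sort, and time differ together with culture, so these sources cannot be told apart. Of 32 tested members, 11 were higher in culture (37.1% of all tested genes were higher) and 12 were lower (37.1% of all tested genes were lower), so the shares of members, 34.4% and 37.5%, were close to those of all genes. Il2ra was the member with the largest rise, with 326, 222, and 132 counts in cultured and 5, 5, and 38 counts in reisolated control cells (log2 fold change 4.18 ± 0.65 (SE), adjusted p = 3.64e-05). Il10ra had 168 ± 38.5 CPM (SD, n = 3) in culture and 42.8 ± 10.7 in vivo (log2 fold change 1.97 ± 0.30 (SE), adjusted p = 2.47e-05). Il1r2 (13.4 ± 1.94 against 4.995 ± 0.301 CPM), Il1rl2 (24.2 ± 1.80 against 11.4 ± 1.41), Il12rb2 (41.5 ± 3.09 against 21.00 ± 2.54), Il3ra (28.97 ± 0.697 against 15.1 ± 2.92), and Il6ra (49.7 ± 4.15 against 27.5 ± 2.41) were also higher in culture, as was Il13ra1, a chain for IL-13 (2.86 ± 0.693 against 1.03 ± 0.242), with log2 fold changes between 0.85 and 1.47. Il18rap was higher by 0.69 and Il4ra by 0.47. Il1r1 was higher by 0.42 (adjusted p = 0.0453), a call lost in 7 of 12 fits that left out a library (adjusted p up to 0.212). Scaling by library size or by the upper quartile also ended this call. These scalings moved the median of all genes from -0.01 to -0.18 and -0.12.

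Il31ra, Il1rapl2, Il2rb, and Il17rb were nearly absent from cultured control cells, with 0 to 3, 0 to 3, 2 to 7, and 3 to 6 counts per library, against 53 to 124, 33 to 98, 51 to 126, and 119 to 148 in vivo. Il22ra2, the soluble binding protein for IL-22, had 4, 8, and 28 counts in culture and 69, 79, and 75 in vivo. Among members with higher counts, Il17re (15.6 ± 2.12 against 55.1 ± 4.16 CPM, log2 fold change -1.83), Il10rb (41.4 ± 3.86 against 101 ± 13.7, -1.29), and Il11ra1, the alpha chain for IL-11 (33.9 ± 9.88 against 70.4 ± 3.24, -1.06), were lower in culture. Il17ra (208 ± 24.00 against 305 ± 15.2), Il15ra (27.2 ± 3.30 against 39.6 ± 2.32), Il1rap (18.9 ± 2.14 against 27.7 ± 3.13), and Il21r (57.9 ± 9.51 against 99.5 ± 21.9) were lower by less, with log2 fold changes between -0.78 and -0.54. Il2rg (0.11 ± 0.10), Il12rb1 (-0.01 ± 0.10), and Il27ra (-0.12 ± 0.09) did not pass. Of the 8 markers of LSK and stem cells, 3 were lower in culture (Cd34, Flt3, and Kit) and 3 higher (Hlf, Ly6a, and Mecom). Markers of B cells (6 of 6 tested), neutrophils (6 of 6), eosinophils (4 of 4), T and NK cells (4 of 4), mast cells and basophils (6 of 9), erythroid cells (4 of 5, with Epor higher), and monocytes, macrophages, and dendritic cells (3 of 8, with 2 higher) were lower in culture, 2 of 4 megakaryocyte genes (Pf4 and Ppbp) were higher, and their part in the receptor values was not tested. Of the 6 members that fell in both knockdown comparisons, Il1r2, Il4ra, and Il6ra were higher in cultured controls, as was Il1r1 by a call that several fits lost. Il10rb was lower there, and Il18r1 did not pass. The comparisons share the control libraries.

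**Figure D5:**
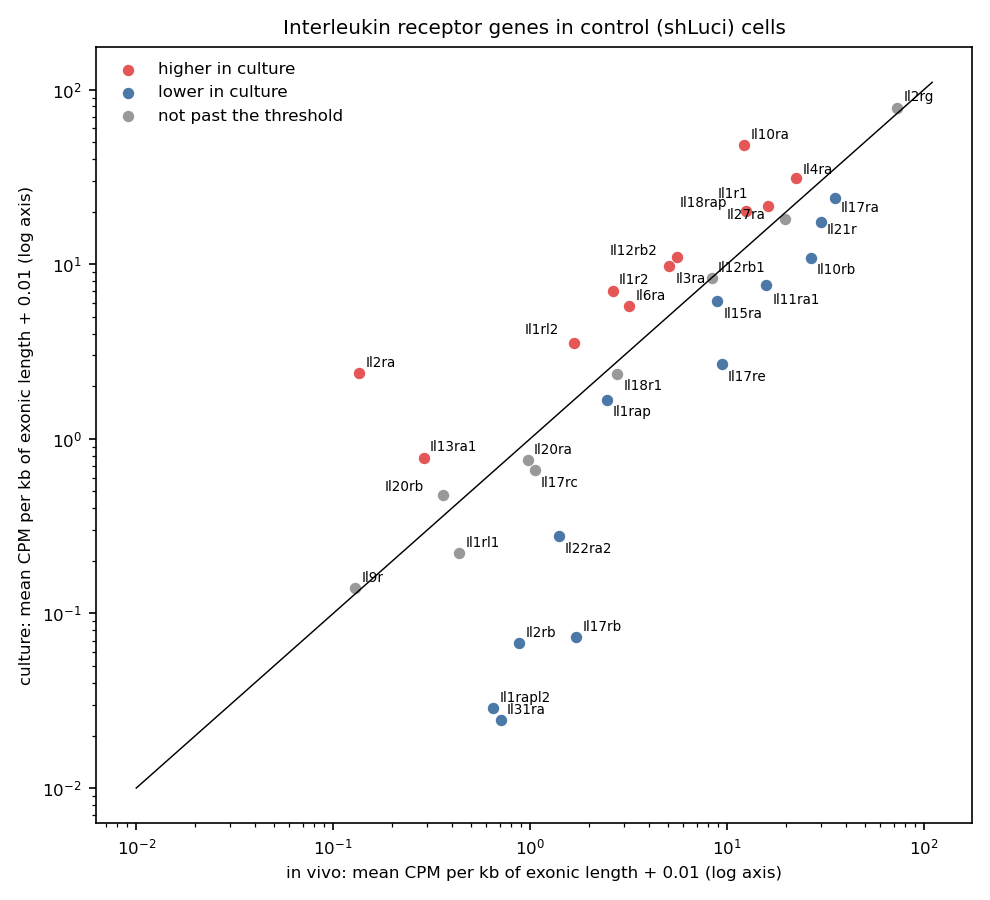
Mean level of the 32 detected interleukin receptor genes in control (shLuci) cells, in CPM per kb of exonic length plus 0.01, in vivo on the x axis and in culture on the y axis, both log axes (n = 3 libraries each; line, equal levels). Red genes (11) were higher in culture (37.1% of all tested genes were higher), blue genes (12) were lower (37.1% of all tested genes were lower), and gray genes did not pass. Il2rg lies at the upper right, and Il31ra, Il1rapl2, Il2rb, and Il17rb lie far below the line.

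The other genes of these pathways were taken from 2 lists. Of 35 receptor partners and signal transducers, 33 were tested in culture, where 2 fell and 1 rose, and 35 in vivo, where 1 fell and 5 rose. These shares, 6.06% lower and 3.03% higher in culture and 2.86% lower and 14.3% higher in vivo, compare with 8.06%, 6.18%, 5.32%, and 5.65% of all genes. In culture, Irak2, a kinase downstream of the IL-1 receptors, went from 25.5, 29.2, and 29.4 CPM to 7.54, 8.59, and 8.83 (log2 fold change -1.75 ± 0.12 (SE), adjusted p = 1.53e-05). Tyk2, the JAK kinase used by the receptors for IL-12 and IL-10, fell by less (log2 fold change -0.45 ± 0.08 (SE), adjusted p = 0.00343), and Sh2b3, which encodes the adaptor Lnk, a brake on cytokine signaling, rose (log2 fold change 0.41 ± 0.08 (SE), adjusted p = 0.00819). In vivo, Cish (log2 fold change 1.23 ± 0.26 (SE), adjusted p = 0.0156) and Socs2 (log2 fold change 1.75 ± 0.38 (SE), adjusted p = 0.0164), both feedback inhibitors that STAT5 induces, rose. Stat3 (0.36), Irak3 (0.38), an inhibitor of IL-1 receptor signaling, and Osmr (2.01) also rose, and Il7r fell (-2.34). The shared chains Il6st, Csf2rb, and Csf2rb2, the kinases Jak1, Jak2, and Jak3, and Myd88 did not pass in either experiment. The effect on Irak2 and Cish differed between the experiments (-1.24 ± 0.23 and -1.59 ± 0.33, adjusted p = 0.00580 and 0.0116).

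Of 39 interleukins and soluble antagonists, 36 matched a counted gene, and 10 were tested in culture and 9 in vivo. In culture Il1b, a ligand of Il1r1, went from 3.55, 5.76, and 6.26 CPM to 0.289, 0.427, and 0.606 (log2 fold change -3.55 ± 0.32 (SE), adjusted p = 7.48e-05). In vivo it had 4, 6, and 10 counts in shRad21 and 0, 8, and 1 in shLuci, and the effect differed from that in culture (-4.65 ± 0.95, adjusted p = 0.0112). Ebi3, a subunit of IL-27 and IL-35, fell in culture (log2 fold change -0.68 ± 0.11 (SE), adjusted p = 0.00176). Il12a, a subunit of IL-12, fell in culture (-0.84, adjusted p = 0.000195) and in vivo (-0.59, 0.00355). Il7 rose in both (0.85 and 0.84), and Il15, a ligand of Il15ra, rose in culture (log2 fold change 0.63 ± 0.13 (SE), adjusted p = 0.00852). Il6, the ligand of Il6ra, did not pass the filter on low counts in either experiment and was not tested. In culture Il6 had 4, 36, and 40 counts in shLuci and 1, 1, and 2 in shRad21. In vivo the counts of Il6 were 24, 1, and 9 in shLuci and 1, 7, and 1 in shRad21.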

How the data were processed

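RNA from 12 libraries in 4 groups was sequenced by the authors, who aligned reads with TopHat2 (version 2.0.11), counted them per Ensembl gene with HTSeq (0.6.1), and deposited raw read counts that were not normalized; both tools and versions are from their processing notes. The strand setting and annotation release are not given in the sources used here. Symbols, types, and positions were looked up in a GRCm38 annotation, and 849 genes without a match (0.105% of counts) stayed in the fits but were not members. The members and lists were chosen with earlier results of these data known.

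Tests on the counts used the quasi-likelihood framework of edgeR (4.0.16, in R 4.3.3) after TMM scaling and filterByExpr (minimum count 10, minimum total 15), with Benjamini-Hochberg adjustment over all tested genes and a threshold of 0.05. Each experiment was fitted on its own 6 libraries. Control cells of the experiments, and the difference of the knockdown effects, were fitted over all 12 libraries. Standard errors were derived from the log2 fold change and F statistic of the same fits. Calls and fold changes of these fits were checked on simulated counts, with changes set in few genes and none at low counts. The standard errors were not part of that check. CPM were scaled by TMM over 12 libraries, and levels between genes were divided by exonic length. Every member with 10 or more counts in at least 3 libraries could be named. The other genes named are Rad21, cell type markers, and genes of the pathway lists, among them some that did not pass the threshold.

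Same-numbered libraries of shLuci and shRad21 deviated together in culture (correlations of their deviations from the group means 0.262, 0.216, and 0.251) and not in vivo (0.024, 0.035, and 0.0694), so by this check the numbers pair the libraries in culture only. Reported values are from fits without the pairing, and the value with the replicate number as a block is given beside a culture result where it changes the call. The pairing comes from the data, since the labels do not say what a number shares. No pair of replicates agreed within sampling noise. Alternatives were DESeq2 (1.42.0), upper-quartile scaling, scaling by library size, no filter, a filter of at least 10 counts in every library, a replicate block, 1 model of all 12 libraries, and leaving out each library. Promoter windows are from RefSeq (GRCm38.p6), and Il10ra, Il10rb, Il12rb1, Il17ra, Il22ra2, Il27ra, and Il2rb had none in the table used.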

Additional observations from a re-analysis of the deposited data

Results flagged for a closer look

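The effect of the Rad21 knockdown on Il27ra differed between the experiments by the interaction term, with a difference of log2 fold changes (culture minus in vivo) of -0.874. It fell in 3 of 3 shRad21 libraries in culture and was higher in 3 of 3 in vivo. The effect on Il1rl2 also differed, by -0.956, and this difference was called in 2 of the 12 fits that left out 1 library. At the level of single libraries, Il1rl2 was lower in 3 of 3 shRad21 libraries in culture and its groups overlapped in vivo. The kit, lane, sorted population, and time differ together with the experiment and cannot be told apart from it.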

How the results depend on the processing

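No called member changed direction under any alternative run. With single libraries left out, 397 of 456 values of called members stayed past the threshold and 59 did not. These values pool all comparisons, and the losses were uneven. In control cells only Il1r1 lost its call in any such fit. In vivo Il10ra, Il12rb1, Il12rb2, Il18rap, Il1r1, Il27ra, and Il2rb did, and in culture Il10rb, Il1rl1, and Il2ra. The difference of effects for Il1rl2 was also lost. The number of members lower in culture (10) ranged from 8 to 11 in those fits and that of members higher in culture (2) from 1 to 2. In vivo, the number lower (13) ranged from 7 to 12 and the number higher (1) from 0 to 2. In control cells between 10 and 11 were higher and between 12 and 14 lower, and the number with a different knockdown effect (2) ranged from 1 to 3. DESeq2 called 1 member higher in culture and 2 higher in vivo, no filter gave 4 higher in vivo and 7 with a different effect, and 1 model of all 12 libraries gave 0 higher in vivo. A filter of at least 10 counts in every library left 7 members lower in cultured control cells, since it removed members near 0 in culture. With the replicate block, 12 members were lower and 3 higher in culture, which added Il10ra, Il12rb2, and Il17re and changed no other call there. Over all 15543 genes tested in culture, the block raised the number lower from 1253 to 1739 and the number higher from 960 to 1447. In vivo, where the numbers do not pair the libraries, the block left 10 lower and 1 higher, without Il12rb1, Il12rb2, and Il2rb. Of all 15938 genes tested in vivo, 805 were lower and 873 higher with the block, against 848 and 901 without it. In control cells the block gave 11 higher and 13 lower (6400 and 6353 of all 17050 genes). It gave 3 members with a different effect (659 of all genes more negative in culture and 332 more positive). Without a filter, Il5ra and Il23r, at or near 0 counts in culture, were also called lower in cultured control cells. For members with few counts, such as Il9r, Il20rb, and Il1rapl2, depth and 3 libraries per group limit what could be detected. Over all genes, DESeq2 called 1063 of 15731 higher in culture and 1095 of 17771 higher in vivo. It raised the number with a more positive effect in culture from 279 to 504.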
